A study of Mus musculus with 12 samples.

Results

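The mitosis and spindle genes are 40 genes that a dividing cell uses to condense, align and separate its chromosomes, and they were chosen by name: mitotic kinases, cyclins, kinetochore proteins, kinesins, spindle and cytokinesis proteins, regulators of the anaphase-promoting complex and 2 transcription factors. All 40 had a row of their own among the 18068 genes of the deposited count table, and all 40 passed the filter on low counts that left 13750 genes for testing. RNA was sequenced from enteroids, cultures of intestinal epithelium grown from crypts, here of the ileum of wild-type C57Bl/6 mice, with a directional poly(A) protocol. The 12 libraries form 4 groups of 3: enteroids given butyrate and IL-13 together (butyrate + IL-13), enteroids given IL-13 (20 ng/mL for 72 h), enteroids given butyrate (1 mM for 48 h) and untreated enteroids. The combined group had the same doses and times of each agent. Butyrate is a short-chain fatty acid made by gut bacteria and an inhibitor of histone deacetylases, and IL-13 is the T helper cytokine, signalling through STAT6, that drives goblet and tuft cell responses to worms. Whether the replicates of a group came from separate mice, passages or wells is not stated in the labels, so the p-values measure the spread between these libraries, which may be technical. Enteroids hold epithelium alone and lack the immune, stromal and bacterial partners of the gut wall.

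Most mitotic genes are transcribed late in the cell cycle, in G2 and mitosis, and their products are destroyed or unused in resting cells, so their RNA is read as a measure of how much of a culture is cycling. In G1 and in arrested cells the DREAM complex, made of MuvB proteins with E2F4 and a retinoblastoma-like protein, sits on many of these promoters and keeps them silent, and in cycling cells MuvB joins B-Myb (Mybl2) and FoxM1 (Foxm1) to switch them on. In the intestine cycling is confined to the crypt, where stem cells and transit-amplifying cells divide, and is lost as cells differentiate. In bulk RNA, fewer cycling cells and less of these RNAs per cycling cell cannot be told apart.

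The promoters are shown first because the members were chosen for what their proteins do and not for their sequence. RefSeq windows from 250 bases before to 50 bases after the annotated start (GRCm38.p6) were matched by symbol for 33 of the 40 members. TTTGAA, the core of the cell cycle genes homology region (CHR) that MuvB binds, was found on either strand in 23 of these 33 windows (69.7%), against 20.2% of the 27025 genes of the promoter table. From 50 bases before to 50 after the start, a range chosen after the values were seen, 21 members (63.6%) had it, against 5.72% of all genes. CCAAT, the box bound by NF-Y, was in 24 members (72.7%) and in 41.1% of all genes. The other letters searched were rare among the members: TTCGAA, a variant CHR, in 3 (9.09%, against 1.8% of all genes), and the E2F sites TTGGCGC in 4 (12.1%, against 2.85%), TTCGCGC in 2 (6.06%, against 1.81%) and TTCCCGC in 1 (3.03%, against 5.29%). Both strands were searched for each motif, and matches of different motifs were counted separately even where they share a letter. A match is a description of these letters and not of binding, which was not measured.

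The windows printed here are those of the 6 members given in every library whose TTTGAA lies nearest to the start, and Pttg1, the only member that was not lower with IL-13 and was added after its values were seen. Each run covers 100 bases before and 30 bases after the RefSeq start, 5′ to 3′ on the gene's own strand, so it ends in the first bases of the transcript. Capitals mark TTTGAA and CCAAT on either strand (TTCAAA and ATTGG on the other).
Ttk: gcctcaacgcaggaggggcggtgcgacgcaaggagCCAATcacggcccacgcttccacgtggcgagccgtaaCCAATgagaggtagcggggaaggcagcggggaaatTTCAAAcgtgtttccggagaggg
Cdk1: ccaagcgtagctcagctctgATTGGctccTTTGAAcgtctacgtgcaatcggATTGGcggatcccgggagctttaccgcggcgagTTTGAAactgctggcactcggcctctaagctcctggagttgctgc
Kif11: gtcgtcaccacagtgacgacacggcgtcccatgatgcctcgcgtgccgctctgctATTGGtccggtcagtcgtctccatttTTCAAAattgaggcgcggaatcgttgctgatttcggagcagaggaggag
Kif4: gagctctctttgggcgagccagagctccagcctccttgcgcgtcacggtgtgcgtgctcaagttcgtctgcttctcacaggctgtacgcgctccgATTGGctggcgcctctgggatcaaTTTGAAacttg
Anln: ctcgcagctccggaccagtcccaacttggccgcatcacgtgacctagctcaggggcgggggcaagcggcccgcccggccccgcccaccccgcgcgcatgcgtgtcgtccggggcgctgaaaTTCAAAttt
Top2a: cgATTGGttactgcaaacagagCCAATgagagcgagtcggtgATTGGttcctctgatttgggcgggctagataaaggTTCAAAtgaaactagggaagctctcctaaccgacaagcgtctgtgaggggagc
Pttg1: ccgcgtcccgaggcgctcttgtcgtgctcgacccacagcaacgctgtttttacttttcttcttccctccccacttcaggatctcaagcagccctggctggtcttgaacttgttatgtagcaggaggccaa
Ttk lies at chr9:83834589-83834718 on the plus strand, Cdk1 at chr10:69352883-69353012 on the minus strand, Kif11 at chr19:37376282-37376411 on the plus strand and Kif4 at chrX:100625965-100626094 on the plus strand. Anln lies at chr9:22389177-22389306, Top2a at chr11:99024160-99024289 and Pttg1 at chr11:43425952-43426081, each on the minus strand. Counted from the start at 1, with bases before it negative, the nearest TTTGAA begins at 8 in Ttk, -15 in Cdk1, -19 in Kif11, 20 in Kif4, 22 in Anln and -23 in Top2a. The window of Pttg1 holds neither motif, but its RefSeq start lies 270 bases from the start in the deposited table, and that of Kif4 lies 328 bases away, so other starts of these genes are not covered.

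**Figure D1:**
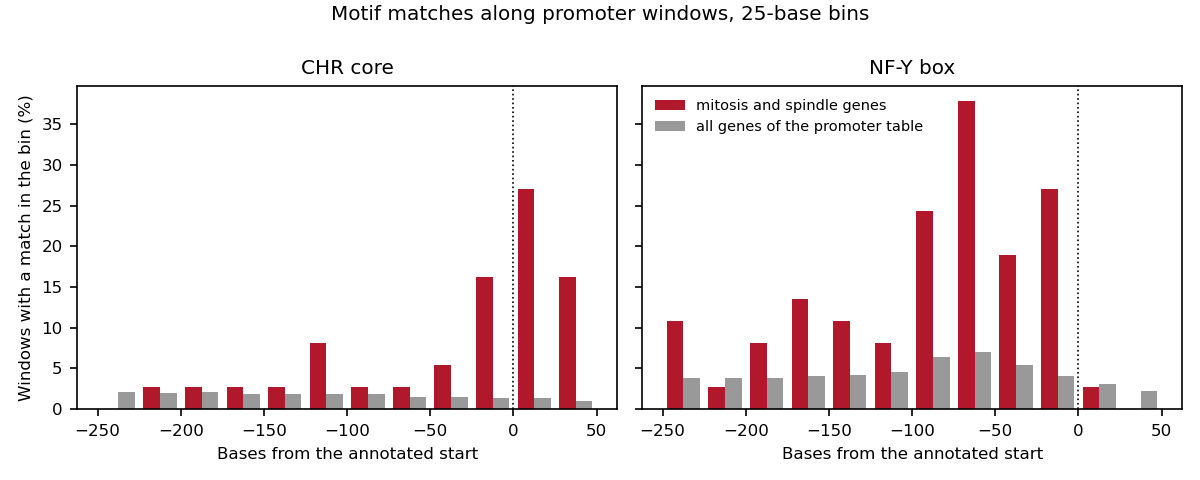
Share of RefSeq promoter windows (vertical axis, percent) with a match on either strand in each 25-base bin, by distance of the bin from the annotated start (horizontal axis, bases). Red bars are the 37 windows of mitosis and spindle genes and grey bars all 32851 windows; the CHR core (left) is most frequent among the members in the bin just after the start, at 27% of windows, and the NF-Y box (right) 50 to 75 bases before it, at 37.8%.

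The 10 members whose window had no TTTGAA were Birc5, Bub1, Ccnb1, Mad2l1, Pttg1, Cenpe, Cenpk, Nuf2, Nusap1 and Mybl2. Their median log2 fold change for IL-13 over untreated was -1.29, with a range of -1.47 to 0.10, and that of the 23 with TTTGAA was -1.06, with a range of -1.59 to -0.71. For butyrate + IL-13 over IL-13 the medians were -0.62 without and -0.54 with the motif. The ranges overlap in both comparisons. The 7 members with no window in the table were Aurkb, Ccna2, Cdc25c, Spc24, Kif20a, Tpx2 and Foxm1. Their median for IL-13 over untreated was -1.55, with a range of -1.97 to -1.01, and -0.59 for butyrate + IL-13 over IL-13. Whether they hold TTTGAA is not known here, so the values with and without the motif leave them out.

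Library totals were 13867982 to 15618074 counts with butyrate + IL-13, 14239405 to 15008598 with IL-13, 17006538 to 24294456 with butyrate and 16303915 to 22558599 in untreated enteroids, so the groups with IL-13 were the shallower ones. Levels are given as CPM, the count as a share of the TMM-scaled library total in units of 1e-06. Epithelial markers summed to 13976 to 14411 CPM with butyrate + IL-13, 12479 to 12919 with IL-13, 10370 to 12608 with butyrate and 11050 to 11377 in untreated libraries, and all 11 had counts in every group. The 7 mesenchymal markers analysed summed to at most 6.10 CPM in any library, the 6 immune markers to at most 34.7, the 3 endothelial markers to at most 1.23 and the 3 glial markers to at most 1.56. Butyrate + IL-13 replicate 3 and butyrate replicate 2 stand apart in Lars2, a mitochondrial tRNA synthetase gene, with 6983 and 5048 CPM, while the other 10 libraries had 423 to 1434 CPM. What Lars2 marks in these libraries was not tested.

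Nearly all mitosis and spindle genes were lower with IL-13. Of the 40 members, 39 fell with IL-13 over untreated and 0 rose in edgeR's quasi-likelihood test (Benjamini-Hochberg adjusted p under 0.05 over all 13750 genes). Across all tested genes, 21.7% fell and 21.8% rose. DESeq2 called 39 members too, and 0 members were higher at an unadjusted p under 0.05, against 25.3% of all genes. The median log2 fold change of the members was -1.27, against -0.01 over all genes. Leaving out Pttg1, the members stood at 25.4% (Cdc25c) to 61.2% (Plk1) of their untreated mean, with a median of 41.5%. The 3 IL-13 libraries lay below all 3 untreated libraries for 39 of 40 members, against 29.9% of all genes. The authors' deposited table of their own untreated and IL-13 comparison also has 39 of the 40 members at an FDR under 0.05, all 39 lower.

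With butyrate added to IL-13, 25 members fell further relative to IL-13 alone and 0 rose in edgeR's test, while across all tested genes 11.3% fell and 9.85% rose; at an unadjusted p under 0.05, 33 were lower and 0 higher, against 17.8% and 15.8% of all genes, and DESeq2 called 26. Their median log2 fold change was -0.54, against -0.01 over all genes. The groups did not overlap for 26 members, all lower, against 19.1% of all genes. The count depends on single libraries: leaving out butyrate + IL-13 replicate 3 gave 13 calls, and leaving out replicate 3 of the IL-13 group gave 15. A core of 12 members was called in every fit run: Mki67, Top2a, Aurkb, Birc5, Plk1, Ccna2, Mad2l1, Ube2c, Kif22, Anln, Foxm1 and Mybl2. Both comparisons use the IL-13 libraries, once on top and once below, so their values are set side by side here and not related to each other.

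**Figure D2:**
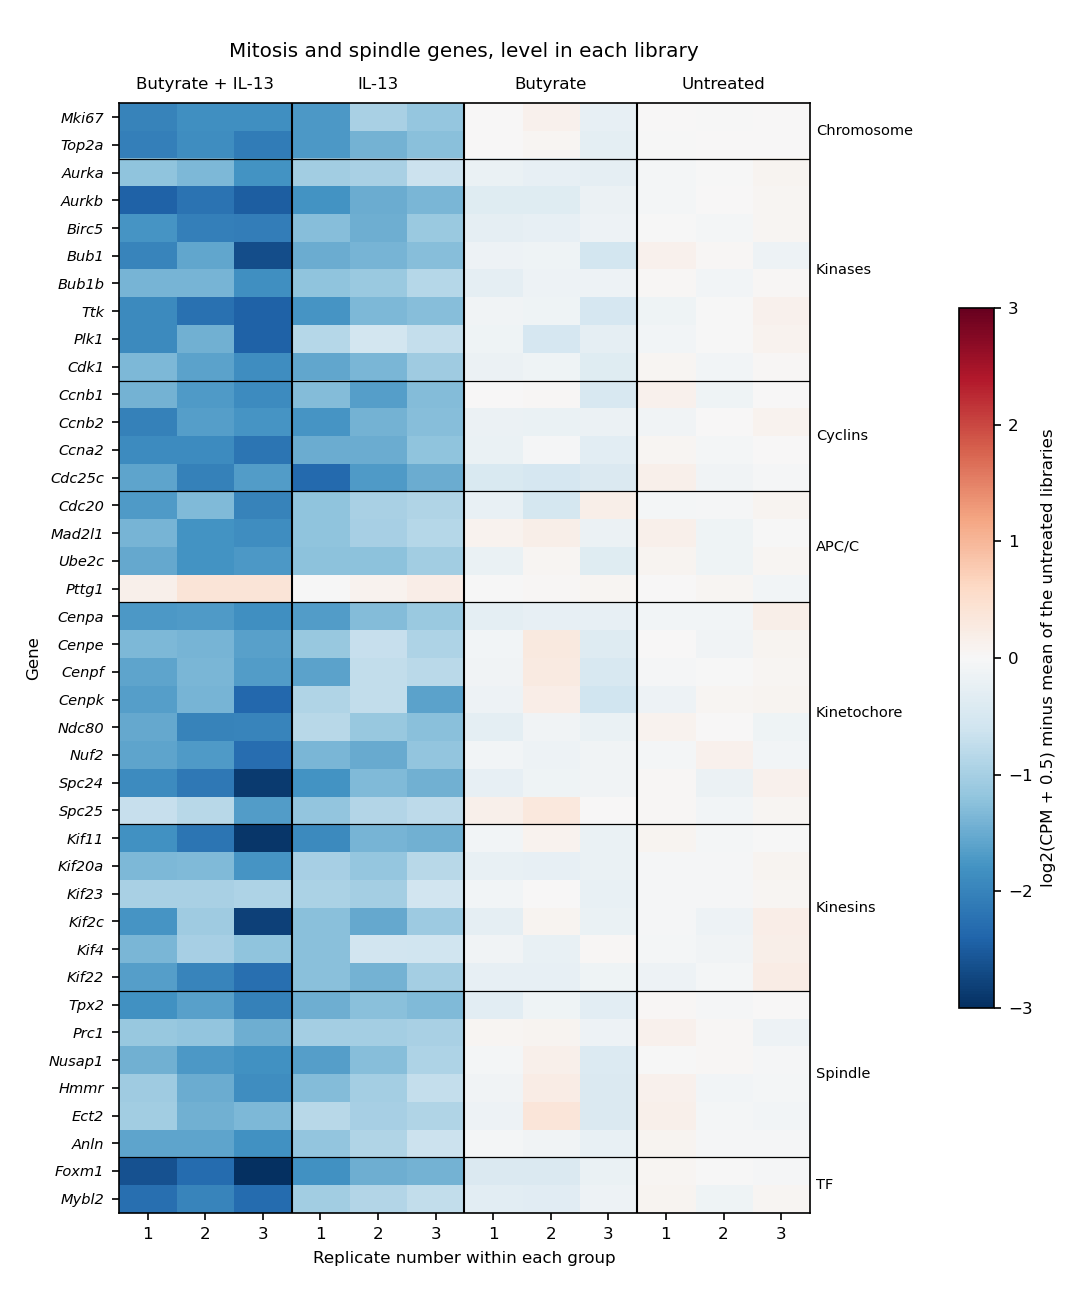
Level of each of the 40 genes (rows, in role groups set apart by lines) in each of the 12 libraries (columns, by group and replicate number), as log2(CPM + 0.5) minus the mean of the untreated libraries (colour, log2 units). Every gene but Pttg1 is blue in the butyrate + IL-13 and IL-13 libraries, the butyrate libraries stay near 0, and Foxm1, Spc24 and Kif11 reach their darkest blue in butyrate + IL-13 replicate 3.

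Markers of other states of the epithelium were compared between the same groups, and their part in the mitotic result was not tested. Across all tested genes, 21.7% fell and 21.8% rose with IL-13 over untreated. With butyrate + IL-13 over IL-13, 11.3% of all genes fell and 9.85% rose, and with butyrate over untreated 2.76% fell and 5.14% rose. The 10 stem cell markers summed to 377 to 451 CPM with butyrate + IL-13, 646 to 704 with IL-13, 854 to 1096 with butyrate and 1013 to 1141 in untreated libraries. Of these 10 genes, 5 fell and 0 rose with IL-13 over untreated, and 6 fell and 1 rose with butyrate + IL-13 over IL-13. The 12 absorptive enterocyte markers summed to 11893 to 16116 CPM with butyrate + IL-13, 9873 to 10419 with IL-13, 10814 to 12329 with butyrate and 8261 to 9099 in untreated libraries. Of these 12 genes, 3 fell and 5 rose with IL-13 over untreated, and 2 fell and 6 rose with butyrate + IL-13 over IL-13, so the sum does not stand for each gene. The 8 tuft cell markers summed to 15.3 to 24.4 CPM with butyrate + IL-13, 72.1 to 79.9 with IL-13, 7.53 to 11.8 with butyrate and 15.9 to 24.4 in untreated libraries. Of the 7 tested, 6 rose and 0 fell with IL-13 over untreated, and 6 fell and 0 rose with butyrate + IL-13 over IL-13. The 8 goblet cell markers summed to 1329 to 1445 CPM with butyrate + IL-13, 2170 to 3071 with IL-13, 2300 to 2905 with butyrate and 3023 to 4524 in untreated libraries, with 4 lower and 0 higher for IL-13 over untreated and 6 lower and 0 higher for butyrate + IL-13 over IL-13. All 6 enteroendocrine markers fell with butyrate + IL-13 over IL-13 (median log2 fold change -2.39) and with butyrate over untreated (-1.30), and 1 fell and 1 rose with IL-13 over untreated. Of the 7 Paneth cell markers, 5 fell and 1 rose with IL-13 over untreated, and 4 fell and 1 rose with butyrate + IL-13 over IL-13. Cdkn1a, the cyclin-dependent kinase inhibitor p21, stood at 1968, 2038 and 1978 CPM with butyrate + IL-13, 1505, 1384 and 1323 CPM with IL-13, 698, 659 and 728 CPM with butyrate and 435, 448 and 446 CPM in untreated libraries. The 4 groups of Cdkn1a did not overlap, and edgeR gave log2 fold changes of 1.66 for IL-13 over untreated (adjusted p = 8.4e-12), 0.65 for butyrate over untreated (2.1e-05) and 0.51 for butyrate + IL-13 over IL-13 (0.00012).

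The 2 chromosome proteins mark the size of the decline. Mki67, which coats mitotic chromosomes and is the usual proliferation marker Ki-67, had 73.2, 81.9 and 81.7 CPM with butyrate + IL-13, 88.6, 148 and 130.1 CPM with IL-13, 294, 319 and 247 CPM with butyrate and 294, 291 and 295 CPM in untreated libraries. The libraries without IL-13 all lay above those with it, and IL-13 replicate 1 was the lowest of its group and close to the butyrate + IL-13 libraries. Its log2 fold change was -1.26 ± 0.14 (standard error) for IL-13 over untreated and -0.63 ± 0.14 for butyrate + IL-13 over IL-13 (edgeR adjusted p = 6.7e-07 and 0.0032). Top2a, the topoisomerase that untangles sister chromatids, had 34.6, 39.3 and 33.6 CPM with butyrate + IL-13, 43.3, 53.3 and 59.8 CPM with IL-13, 144, 151 and 118 CPM with butyrate and 144, 144 and 145 CPM in untreated libraries. It fell in both comparisons (log2 fold change -1.47 ± 0.11 and -0.54 ± 0.12, edgeR adjusted p = 1e-08 and 0.0031), and its groups did not overlap in either.

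All 8 mitotic kinases and passenger proteins fell with IL-13 over untreated, and 7 of the 8 fell again with butyrate + IL-13 over IL-13. Aurkb, the kinase of the chromosomal passenger complex that corrects faulty attachments of chromosomes to the spindle, had 15.1, 17.7 and 14.7 CPM with butyrate + IL-13, 23.6, 29.4 and 32.1 CPM with IL-13, 64.5, 64.1 and 73.8 CPM with butyrate and 79.8, 83.5 and 86.6 CPM in untreated libraries. No 2 of the 4 groups overlapped. The log2 fold change was -1.55 ± 0.11 for IL-13 over untreated and -0.84 ± 0.12 for butyrate + IL-13 over IL-13 (edgeR adjusted p = 4e-09 and 9.6e-05). Birc5, survivin, the passenger subunit that carries Aurkb to the centromere, had 11.8, 9.56 and 9.36 CPM with butyrate + IL-13, 16.8, 14.6 and 18.9 CPM with IL-13, 34.4, 34.9 and 37.4 CPM with butyrate and 41.0, 39.8 and 43.3 CPM in untreated libraries. No 2 of its groups overlapped, and it fell in both comparisons (log2 fold change -1.30 ± 0.12 and -0.71 ± 0.13, edgeR adjusted p = 5.8e-08 and 0.00073). The kinases that run the spindle checkpoint, Ttk, Bub1 and Bub1b, also fell in both. Their calls for butyrate + IL-13 over IL-13 did not hold in every alternative (edgeR or DESeq2 adjusted p up to 0.10, 0.25 and 0.069). Ttk, which starts checkpoint signalling at unattached kinetochores, had 2.14, 1.59 and 1.32 CPM with butyrate + IL-13, 2.38, 3.36 and 3.54 CPM with IL-13, 8.57, 8.48 and 6.40 CPM with butyrate and 8.53, 9.28 and 10.3 CPM in untreated libraries.

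In the same group, Plk1 fell in both comparisons and Cdk1 in the first alone, and the difference between them was not tested. Plk1, the polo-like kinase that drives centrosome maturation and entry into mitosis, had 13.0, 18.2 and 9.07 CPM with butyrate + IL-13, 27.8, 34.6 and 30.8 CPM with IL-13, 46.2, 35.8 and 41.8 CPM with butyrate and 47.5, 50 and 54.9 CPM in untreated libraries. The groups did not overlap in any pair, and butyrate + IL-13 replicate 3 was the lowest. Its log2 fold change was -0.71 ± 0.16 for IL-13 over untreated, the least negative among the kinases, and -1.21 ± 0.18 for butyrate + IL-13 over IL-13, the most negative (edgeR adjusted p = 0.0016 and 0.00011). Cdk1, the cyclin-dependent kinase that triggers mitosis, had 16.6, 13.8 and 11.6 CPM with butyrate + IL-13, 14.4, 16.4 and 20.5 CPM with IL-13, 38.3, 39.5 and 33.4 CPM with butyrate and 44.9, 40.9 and 43.9 CPM in untreated libraries. The libraries with IL-13 overlapped whether or not butyrate was added. Cdk1 fell with IL-13 over untreated (log2 fold change -1.34 ± 0.14, edgeR adjusted p = 3.5e-07), and with butyrate + IL-13 over IL-13 its log2 fold change of -0.29 ± 0.15 did not pass (adjusted p = 0.17).

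The 3 cyclins and the phosphatase Cdc25c, the partners and the activator of Cdk1, fell with IL-13 over untreated, and Ccna2 fell further with butyrate + IL-13 over IL-13, while the other 3 did not pass there. Ccna2, cyclin A2, which acts in S phase and G2, had 50.4, 50.4 and 40.5 CPM with butyrate + IL-13, 66.3, 65.8 and 80.7 CPM with IL-13, 163, 182 and 151 CPM with butyrate and 193, 179.7 and 187 CPM in untreated libraries. The butyrate and untreated libraries overlapped, and the groups with IL-13 lay below them and apart from each other. Its log2 fold changes were -1.40 ± 0.10 and -0.59 ± 0.11 (edgeR adjusted p = 6.3e-09 and 0.00075). The B-type cyclins Ccnb1 and Ccnb2, which activate Cdk1 at entry into mitosis, had log2 fold changes of -1.47 ± 0.17 and -1.50 ± 0.13 for IL-13 over untreated, and of -0.26 ± 0.19 and -0.35 ± 0.14 for butyrate + IL-13 over IL-13, where neither passed (edgeR adjusted p = 0.35 and 0.078, the second with 0.018 to 0.31 over the alternatives). Cdc25c, the phosphatase that removes the inhibitory phosphates of Cdk1, had 3.24, 2.23 and 3.00 CPM with butyrate + IL-13, 1.73, 2.95 and 3.47 CPM with IL-13, 7.63, 7.33 and 7.76 CPM with butyrate and 11.9, 9.89 and 10.4 CPM in untreated libraries. It had the most negative fold change of the 40 for IL-13 over untreated (-1.97 ± 0.21, edgeR adjusted p = 6.8e-07), while the libraries with IL-13 overlapped with and without butyrate.

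Of the 4 genes around the anaphase-promoting complex (APC/C), the ubiquitin ligase whose activity ends mitosis, 3 fell in both comparisons. These were Cdc20, the activator of the complex, Mad2l1, the checkpoint protein that blocks Cdc20, and Ube2c, the ubiquitin-conjugating enzyme that works with it. For butyrate + IL-13 over IL-13, Mad2l1 and Ube2c were called in every fit and Cdc20 was not (edgeR or DESeq2 adjusted p up to 0.079). Ube2c had 16.1, 13.4 and 14.2 CPM with butyrate + IL-13, 20.3, 20.0 and 23.1 CPM with IL-13, 41.4, 49.6 and 37.2 CPM with butyrate and 50.8, 43.7 and 49.6 CPM in untreated libraries. The groups with IL-13 lay apart from each other and below the other libraries (log2 fold change -1.18 ± 0.12 for IL-13 over untreated and -0.54 ± 0.13 for butyrate + IL-13 over IL-13, edgeR adjusted p = 3.1e-07 and 0.0064). Pttg1 is securin, the inhibitor of separase that the complex destroys at anaphase. It had 12, 14.2 and 14.1 CPM with butyrate + IL-13, 10.6, 11.5 and 12.5 CPM with IL-13, 10.7, 11 and 11.2 CPM with butyrate and 10.9, 11.2 and 10.2 CPM in untreated libraries. The IL-13, butyrate and untreated libraries overlapped, and the butyrate + IL-13 libraries lay above the untreated ones. Its log2 fold change was 0.10 ± 0.13 for IL-13 over untreated and 0.22 ± 0.13 for butyrate + IL-13 over IL-13 (edgeR adjusted p = 0.58 and 0.25), and 0.32 ± 0.13 for butyrate + IL-13 over untreated (adjusted p = 0.041, with 0.015 to 0.88 over the alternatives). That last call was lost when any of the 3 untreated libraries, butyrate replicate 1, IL-13 replicate 2, or butyrate + IL-13 replicate 2 or 3 was left out, and with scaling by library totals the value was 0.02. The call was also lost with no filter on low counts, with a replicate block and without both libraries high in Lars2.

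**Figure D3:**
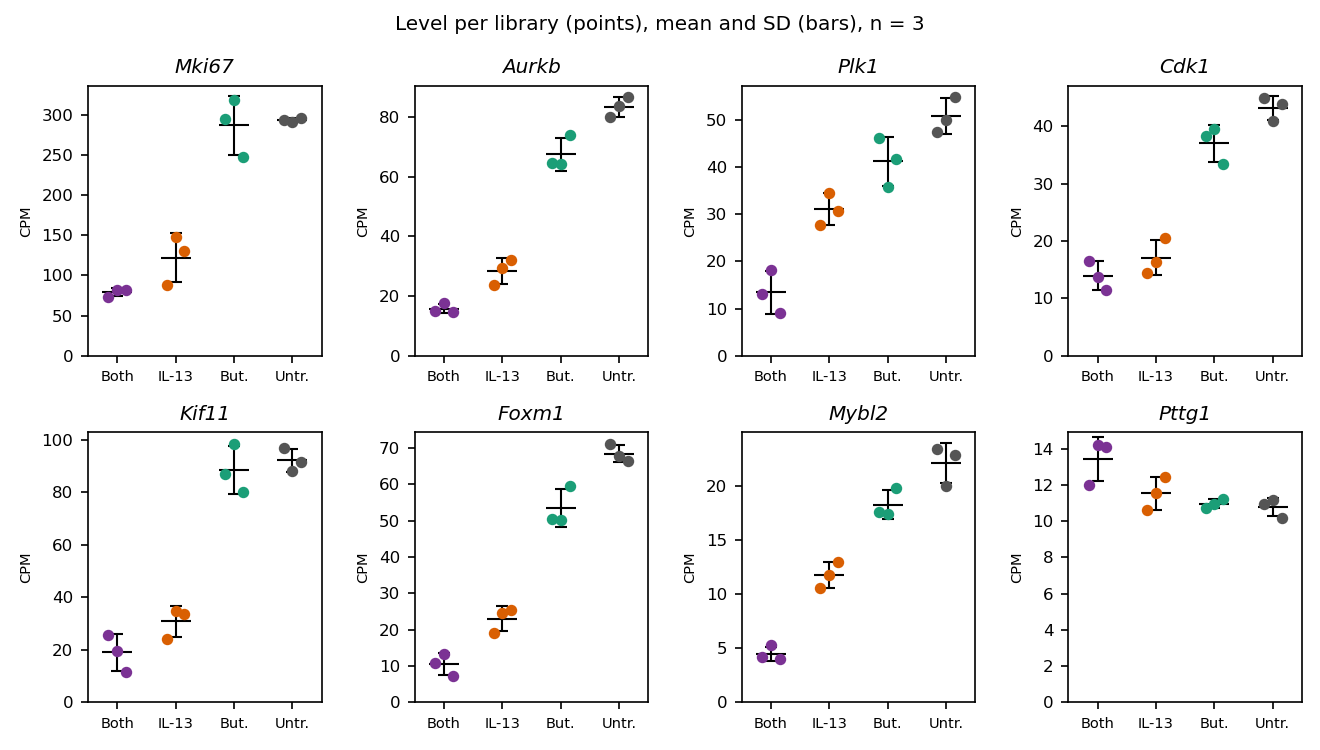
Level in CPM (vertical axes, each from 0) of 8 genes in each library, by group (horizontal axis: Both, butyrate + IL-13; But., butyrate; Untr., untreated); points are libraries, the long bar the mean and the error bar the SD of 3. Mki67, Aurkb, Plk1, Foxm1 and Mybl2 are lower with both agents than with IL-13 and lower with IL-13 than untreated. Kif11 and Cdk1 are lower with IL-13 than untreated and overlap between both agents and IL-13. Pttg1 lies between 10.2 and 14.2 CPM throughout.

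All 8 kinetochore and centromere genes fell with IL-13 over untreated, and 5 fell further with butyrate + IL-13 over IL-13. None of the 8 was among the 12 members called there in every fit. Over the alternatives the adjusted p (edgeR or DESeq2) reached 0.062 for Spc24, 0.083 for Ndc80, 0.23 for Nuf2 and 0.18 for Cenpa. Spc24, a subunit of the NDC80 complex that holds the ends of microtubules, had 7.67, 6.37 and 3.66 CPM with butyrate + IL-13, 8.22, 11.6 and 10.6 CPM with IL-13, 25.3, 27.1 and 27.5 CPM with butyrate and 30.6, 26.5 and 32.9 CPM in untreated libraries. The butyrate + IL-13 libraries all lay below the IL-13 libraries, by a narrow margin between replicate 1 of each. The log2 fold changes were -1.56 ± 0.18 and -0.79 ± 0.20 (edgeR adjusted p = 1.2e-06 and 0.0097). Of the 4 subunits of that complex, Ndc80, Nuf2 and Spc24 fell with butyrate + IL-13 over IL-13, with log2 fold changes of -1.06 ± 0.31, -0.51 ± 0.17 and -0.79 ± 0.20, and Spc25 had -0.09 ± 0.20 (edgeR adjusted p = 0.019, 0.041, 0.0097 and 0.80). Spc25 had 11, 9.96 and 5.34 CPM with butyrate + IL-13 against 7.79, 9.68 and 10.3 CPM with IL-13, and the difference between subunits was not tested. Cenpe, a kinesin motor at the kinetochore that brings chromosomes to the spindle equator, had 9.41, 9.16 and 7.68 CPM with butyrate + IL-13, 11.1, 15.1 and 12.9 CPM with IL-13, 23.5, 30.5 and 18.7 CPM with butyrate and 25.1, 23.1 and 26.4 CPM in untreated libraries.

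The other kinetochore members ranged widely in depth. Cenpa, the histone H3 variant that marks the centromere, averaged 17.1 ± 0.817 CPM with butyrate + IL-13, 22.8 ± 4.40 with IL-13, 48.8 ± 0.866 with butyrate and 58.9 ± 6.24 in untreated libraries (SD, n = 3 each), and fell in both comparisons (log2 fold change -1.37 ± 0.12 and -0.42 ± 0.13, edgeR adjusted p = 6.4e-08 and 0.029). Cenpk, a subunit of the constitutive centromere network, is the least covered member. It had 4, 6 and 0 counts in the butyrate + IL-13 libraries, 12, 15 and 5 with IL-13, 46, 47 and 21 with butyrate and 43, 53 and 40 in untreated libraries. Its call for IL-13 over untreated (log2 fold change -1.46 ± 0.47, edgeR adjusted p = 0.017) was lost without IL-13 replicate 3 (adjusted p = 0.096), and its log2 fold change of -1.50 ± 0.68 for butyrate + IL-13 over IL-13 did not pass (adjusted p = 0.13).

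All 6 kinesins fell with IL-13 over untreated, and Kif11, Kif20a and Kif22 fell further with butyrate + IL-13 over IL-13. Only Kif22 among them was called there in every fit. Kif11, the motor that pushes the spindle poles apart, had 25.6, 19.7 and 11.8 CPM with butyrate + IL-13, 24.2, 34.9 and 33.8 CPM with IL-13, 87, 98.5 and 80.1 CPM with butyrate and 97.0, 88.2 and 91.6 CPM in untreated libraries. The groups with IL-13 overlapped by 1 library, and butyrate + IL-13 replicate 3 was far below the others. The log2 fold changes were -1.57 ± 0.18 and -0.71 ± 0.19 (edgeR adjusted p = 1.5e-06 and 0.014), and the second of these ranged from adjusted p = 0.0015 to 0.088 over the alternatives. Kif4, a chromokinesin that shapes chromosome arms and the central spindle, had 8.30, 10.9 and 9.44 CPM with butyrate + IL-13, 9.16, 14.8 and 14.6 CPM with IL-13, 20.9, 19.3 and 22.9 CPM with butyrate and 21.5, 20.7 and 25.4 CPM in untreated libraries. It had the least negative fold change of the kinesins for IL-13 over untreated (-0.80 ± 0.16, edgeR adjusted p = 0.00059) and did not pass for butyrate + IL-13 over IL-13 (-0.43 ± 0.18, adjusted p = 0.089). Kif23, the motor of the centralspindlin complex that builds the cleavage furrow, stood at 50.8% of its untreated mean with butyrate + IL-13, the highest share of the 39 members that fell, and at 55.1% with IL-13.

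All 6 spindle and cytokinesis genes fell with IL-13 over untreated, and Tpx2 and Anln fell further with butyrate + IL-13 over IL-13. Anln was called there in every fit, and Tpx2 was not (edgeR or DESeq2 adjusted p up to 0.082). Tpx2, which activates Aurora A on spindle microtubules, had 10.4, 11.9 and 9.0 CPM with butyrate + IL-13, 13.3, 15.6 and 14.8 CPM with IL-13, 30.4, 34.6 and 30.4 CPM with butyrate and 38.7, 36.8 and 38.5 CPM in untreated libraries. No 2 of its groups overlapped (log2 fold change -1.38 ± 0.12 and -0.48 ± 0.13, edgeR adjusted p = 2.7e-08 and 0.011). Anln, anillin, the scaffold of the contractile ring, had 17.6, 17.6 and 14.9 CPM with butyrate + IL-13, 23.4, 28.6 and 34.2 CPM with IL-13, 51.8, 50.2 and 46.0 CPM with butyrate and 57.2, 52.1 and 52.4 CPM in untreated libraries. Its groups did not overlap either, with log2 fold changes of -0.91 ± 0.12 and -0.79 ± 0.13 (edgeR adjusted p = 7.2e-06 and 0.0003). Prc1, Nusap1, Hmmr and Ect2, which bundle microtubules or direct cytokinesis, had log2 fold changes of -1.27 to -0.93 for IL-13 over untreated and of -0.45 to -0.26 for butyrate + IL-13 over IL-13, where edgeR called 0 of the 4, although all 4 were lower at an unadjusted p under 0.05.

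The 2 transcription factors fell in both comparisons, and of the 8 role groups theirs had the lowest mean with butyrate + IL-13. Foxm1, the forkhead factor that activates G2 and mitosis genes, had 10.8, 13.4 and 7.31 CPM with butyrate + IL-13, 19.1, 24.6 and 25.3 CPM with IL-13, 50.6, 50.2 and 59.6 CPM with butyrate and 71.1, 67.9 and 66.3 CPM in untreated libraries. No 2 of the 4 groups overlapped. Its log2 fold change was -1.57 ± 0.15 for IL-13 over untreated, -1.14 ± 0.17 for butyrate + IL-13 over IL-13 and -2.71 ± 0.16 for butyrate + IL-13 over untreated (edgeR adjusted p = 1.2e-07, 0.00011 and 1.3e-10). Mybl2, B-Myb, the factor that joins MuvB in S phase and G2, had 4.19, 5.26 and 4.02 CPM with butyrate + IL-13, 10.5, 11.7 and 12.9 CPM with IL-13, 17.6, 17.4 and 19.8 CPM with butyrate and 23.4, 20.0 and 22.8 CPM in untreated libraries. Its groups did not overlap either, with log2 fold changes of -0.91 ± 0.13 for IL-13 over untreated, -1.39 ± 0.16 for butyrate + IL-13 over IL-13 and -2.30 ± 0.15 for butyrate + IL-13 over untreated (edgeR adjusted p = 2.1e-05, 8.3e-06 and 3.9e-10).

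**Figure D4:**
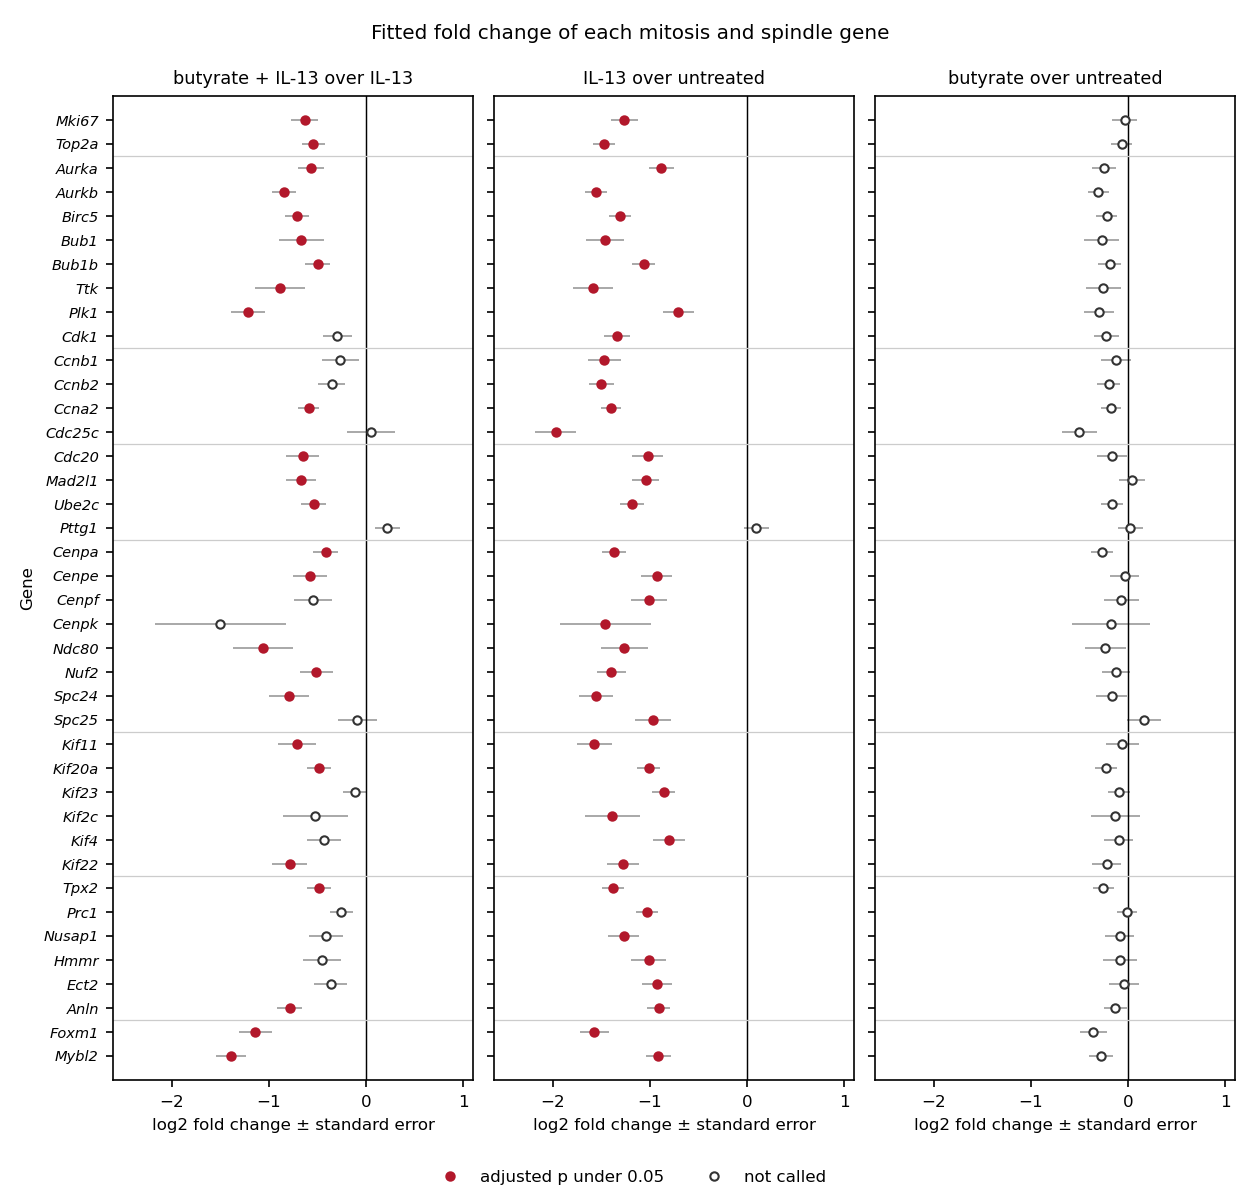
Fitted log2 fold change (points) and its standard error (bars) of each of the 40 genes for butyrate + IL-13 over IL-13, IL-13 over untreated and butyrate over untreated; filled red points passed an edgeR adjusted p under 0.05. In the middle panel 39 points are filled, in the left panel 25, and in the right panel 0, where most points lie just left of 0.

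With butyrate alone most mitotic genes had estimates slightly below 0, and none passed the test. Of the 40 members, edgeR called 0 lower and 0 higher with butyrate over untreated, and DESeq2 called 0; across all tested genes 2.76% were called lower and 5.14% higher. At an unadjusted p under 0.05, 6 members were lower and 0 higher, against 9.67% and 11.8% of all genes. The estimate was negative for 37 of the 40, against 52.5% of all genes. The median log2 fold change was -0.17, against -0.01 over all genes. The members other than Pttg1 stood at 70.8% (Cdc25c) to 112% (Spc25) of their untreated mean, with a median of 88.9%. For 15 of the 40, all butyrate libraries lay below all untreated libraries, against 14% of all genes. Aurkb had a log2 fold change of -0.30 ± 0.11 (edgeR adjusted p = 0.091) and Foxm1 of -0.36 ± 0.14 (0.13). Aurkb passed without butyrate replicate 3 (0.035) and with scaling by library totals (0.041), and Foxm1 in a fit of the butyrate and untreated libraries alone (0.046). Mki67 (-0.03 ± 0.13) and Kif11 (-0.06 ± 0.17) were close to 0, and the sign of both turned without butyrate replicate 3.

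Set against butyrate alone, 39 of the 40 members fell with butyrate + IL-13 and 0 rose in edgeR's test, with a median log2 fold change of -1.61, against -0.04 over all genes, of which 24.9% fell and 22.9% rose. For 39 members the butyrate + IL-13 libraries all lay below the butyrate libraries, against 26.8% of all genes. Pttg1 had a log2 fold change of 0.29 there (adjusted p = 0.069). Set against untreated enteroids, 39 members fell with butyrate + IL-13 and Pttg1 rose, with a median log2 fold change of -1.82, against -0.05 over all genes, of which 31.5% fell and 28.2% rose. The 39 stood at 12.9% (Cenpk) to 50.8% (Kif23) of their untreated mean, with a median of 27.7%. All 39 of these calls held in every alternative in both comparisons, while the call of Pttg1 over untreated was lost in several.

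The interaction asks whether the log2 effect of IL-13 with butyrate differs from its effect without. Mybl2 was the 1 member called (-1.11 ± 0.20, edgeR adjusted p = 0.012, and 0.00014 to 0.042 over the alternatives), against 0.611% of all tested genes called lower and 0.255% called higher. Of the 40 estimates, 38 were negative, against 54.3% of all genes. Their median was -0.39, against -0.02 over all genes, and was -0.22 without both libraries high in Lars2. At an unadjusted p under 0.05, 17 were lower and 0 higher, against 6.95% and 3.89% of all genes. Plk1 had -0.92 ± 0.24 (edgeR adjusted p = 0.088) and Anln -0.66 ± 0.17 (0.095). DESeq2 called 4 members, Mybl2, Plk1, Anln and Foxm1. The count was 1 to 4 with single libraries left out, and 4 without butyrate replicate 3. For the members other than Mybl2 no call held in every fit. For each of them, a change by butyrate in the effect of IL-13 is therefore not established.

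The libraries of a group differed in how low the mitotic genes lay as a whole. The mean of log2(CPM + 0.5) over the 40 genes, relative to the untreated mean, was -1.58, -1.59 and -1.95 in the butyrate + IL-13 libraries, -1.33, -1.14 and -1.02 in the IL-13 libraries and -0.16, -0.07 and -0.25 in the butyrate libraries. The untreated libraries lay between -0.045 and 0.032. Butyrate + IL-13 replicate 3, high in Lars2, was the lowest of its group for 31 of the 40 genes, and IL-13 replicate 1, which is not, was the lowest of its group for 27. Butyrate replicate 2, also high in Lars2, had the highest mean of its group (-0.07) and was the lowest for 11 genes. No library of one treatment overlapped with those of another in this mean. By role, the mean of butyrate + IL-13 ran from -2.43 for the transcription factors to -1.19 for the APC/C group, which holds Pttg1, and that of IL-13 from -1.53 for the cyclins and phosphatase to -0.78 for the APC/C group.

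Other genes of the mitotic machinery also fell with IL-13. Of all tested genes, 21.7% fell and 21.8% rose with IL-13 over untreated, and 11.3% fell and 9.85% rose with butyrate + IL-13 over IL-13. Of 35 other kinetochore and centromere genes tested, 32 fell and 0 rose with IL-13 over untreated (median log2 fold change -1.10), and 13 fell and 0 rose with butyrate + IL-13 over IL-13 (-0.51). Of 28 other mitotic kinesins, spindle and cytokinesis genes, 27 fell and 1 rose, and 18 fell and 0 rose. Racgap1, the partner of Kif23 in centralspindlin, averaged 13.8 ± 1.39 CPM with butyrate + IL-13, 23.5 ± 2.80 with IL-13, 53.7 ± 2.10 with butyrate and 61.3 ± 2.45 in untreated libraries (SD, n = 3 each; log2 fold change -1.38 ± 0.10 and -0.77 ± 0.11, edgeR adjusted p = 6.5e-09 and 0.00012). The gene that rose was Tuba1c, an alpha-tubulin, while the tubulin genes Tuba1b and Tubb5 of the same list fell with IL-13 over untreated. Tuba1c had 137 ± 3.94 CPM with butyrate + IL-13, 142 ± 13.3 with IL-13, 98.8 ± 12.4 with butyrate and 91.0 ± 0.847 in untreated libraries (log2 fold change 0.64 ± 0.09 for IL-13 over untreated, edgeR adjusted p = 2e-05). Of 22 other regulators of mitotic entry and exit, 18 fell and 1 rose with IL-13 over untreated (median -1.17), and 12 fell and 0 rose with butyrate + IL-13 over IL-13 (-0.39). Ccnf, cyclin F, fell in both (-1.25 ± 0.11 and -0.77 ± 0.13, edgeR adjusted p = 8.7e-08 and 0.00035), and Ensa, an inhibitor of the phosphatase PP2A that mitosis requires, rose with IL-13 (0.24 ± 0.07, adjusted p = 0.012).

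Lists of genes that serve mitosis along with other tasks had medians closer to 0. Their counts stand beside 21.7% of all tested genes lower and 21.8% higher with IL-13 over untreated. For butyrate + IL-13 over IL-13 these shares were 11.3% and 9.85%. Of 18 condensin and cohesin genes, 14 fell and 0 rose with IL-13 over untreated, and 6 fell and 0 rose with butyrate + IL-13 over IL-13 (medians -0.85 and -0.26). The condensin subunit Ncaph, which compacts mitotic chromosomes, fell in both (-1.07 ± 0.16 and -1.04 ± 0.18, edgeR adjusted p = 2.6e-05 and 0.00042), and the cohesin subunit Smc1a fell with IL-13 over untreated (-0.97 ± 0.09, adjusted p = 6.6e-08) and had 0.04 ± 0.09 for butyrate + IL-13 over IL-13. Of the 14 subunits of the APC/C itself, which is present through the cell cycle, 7 fell and 1 rose with IL-13 over untreated, and 2 fell and 0 rose with butyrate + IL-13 over IL-13 (medians -0.37 and -0.11). The 2 of 14 that fell in the second comparison are close to the 11.3% of all genes. Of 22 E2F, retinoblastoma and MuvB genes, 11 fell and 0 rose with IL-13 over untreated, and 4 fell and 2 rose with butyrate + IL-13 over IL-13. The atypical repressors E2f7 and E2f8, made in S phase, were among those that fell in both, E2f8 with 5.65 ± 1.35 CPM with butyrate + IL-13, 11.4 ± 1.87 with IL-13, 31.6 ± 1.74 with butyrate and 42.6 ± 2.22 in untreated libraries (SD, n = 3 each). E2f3 and Rb1, the retinoblastoma gene, rose with butyrate + IL-13 over IL-13 (0.41 ± 0.09 and 0.52 ± 0.13, edgeR adjusted p = 0.0039 and 0.0079). Of 19 kinesins and light chains that carry cargo outside mitosis, 2 fell and 9 rose with IL-13 over untreated (median 0.23), with Kif13b and Kif1b among the genes that rose. With butyrate + IL-13 over IL-13, 1 fell and 3 rose (0.08), where 11.3% of all genes fell and 9.85% rose.

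**Figure D5:**
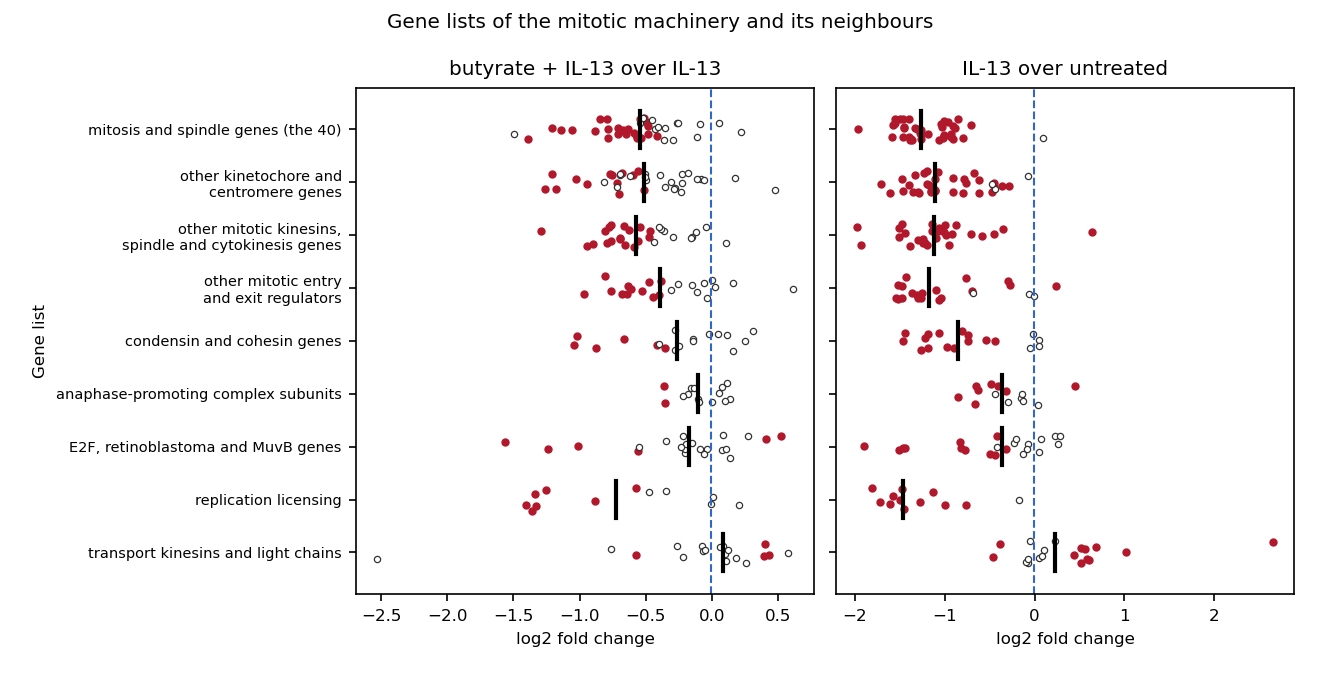
Fitted log2 fold change (horizontal axes) of each tested gene of 9 lists (rows) for butyrate + IL-13 over IL-13 (left) and IL-13 over untreated (right); red points passed an edgeR adjusted p under 0.05, open points did not, black bars are list medians and the dashed line is the median of all genes. The medians of the mitotic lists lie left of the dashed line in both panels, at -1.27 for the 40 genes in the right panel, and that of the transport kinesins lies right of it at 0.23.

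Genes of DNA replication and its control fell as well, and replication comes before G2 and mitosis. The 12 tested are called replication licensing genes here, although Gmnn inhibits licensing and Pcna acts after it. Of these 12, 11 fell and 0 rose with IL-13 over untreated, and 7 fell and 0 rose with butyrate + IL-13 over IL-13 (medians -1.46 and -0.73). Among all tested genes, 21.7% fell and 21.8% rose in the first comparison, and 11.3% fell and 9.85% rose in the second. Mcm2, a subunit of the replicative helicase, averaged 12.8 ± 2.67 CPM with butyrate + IL-13, 33.8 ± 4.63 with IL-13, 73.0 ± 1.45 with butyrate and 92.8 ± 2.55 in untreated libraries (SD, n = 3 each). With butyrate over untreated edgeR called 0 of the licensing genes, with 7 of the 12 lower and 0 higher at an unadjusted p under 0.05, where 9.67% of all genes were lower. In that comparison it also called 0 genes in either direction among the other kinetochore, other spindle, other entry and exit, condensin and cohesin, and APC/C lists, where 2 of 35, 6 of 28, 3 of 22, 1 of 18 and 2 of 14 genes were lower at an unadjusted p under 0.05 and 1 condensin and cohesin gene higher. The 22 E2F, retinoblastoma and MuvB genes had 1 called lower and 1 higher, with 6 lower and 2 higher at an unadjusted p under 0.05. The 19 transport kinesins and light chains had 0 called lower and 1 higher, with 0 lower and 3 higher at that unadjusted p. Of all tested genes, 2.76% were called lower and 5.14% higher. TTTGAA was in 43.3% of 30 windows of the other kinetochore genes, 57.7% of 26 of the other spindle genes, 35.3% of 17 of the entry and exit regulators, 50% of 14 of the condensin and cohesin genes, 15.4% of 13 of the APC/C subunits, 41.2% of 17 of the E2F, retinoblastoma and MuvB genes, 11.1% of 9 of the licensing genes and 7.14% of 14 of the transport kinesins.

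Some counts may hold reads of another gene, since the sources used here do not say whether counting used strand. By the deposited coordinates, 8 members overlap another gene of the table: Ccna2, Cdc25c, Cdc20, Ube2c, Kif20a, Kif4 and Nusap1 overlap a gene on the opposite strand by 53 to 2315 bases, and Foxm1 overlaps one on its own strand by 438 bases. Ccnb1, Ccnb2, Kif4 and Kif22 also have annotated pseudogenes that could share reads. The values of these members are uncertain to that extent.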

How the data were processed

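The authors deposited whole-number read counts per gene for 12 libraries; their differing totals mark them as raw. Per the file headers, further columns gave log2 fold change, FDR and p-value of a DESeq comparison between untreated and IL-13 libraries. Per the submitters' processing notes the genome build was mm10, while for aligner, counter, strand setting and DESeq version no source used here gives a name. Untreated columns carried the short name US in the headers and Untreated in the table's name. Every row had a count in an untreated or IL-13 library, so a gene with counts in butyrate libraries alone would be missing. The 18092 rows became 18068 genes after the rows of 23 genes were summed.

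Counts were tested with edgeR 4.0.16 (quasi-likelihood, robust, TMM, filterByExpr; R 4.3.3, limma 3.58.1) in a single fit of 12 libraries with a coefficient per group, 8 residual degrees of freedom and a biological coefficient of variation of 10.2%. It kept 13750 genes and removed 4318. Comparisons were 6, with calls at a p under 0.05 after Benjamini-Hochberg adjustment. Alternatives were RLE scaling, library totals alone, DESeq2 1.42.0, no filter, a mean of at least 50 counts, only the groups compared, a replicate block, thinning to the lowest total, each library left out, and both Lars2-high libraries left out, which were known from earlier work on these data. Replicate libraries differed beyond sampling noise (3.82 to 35.8 as chi-square over its degrees of freedom, for genes with at least 10 counts), so none was counted as a duplicate.

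The members, the role groups, the gene lists and the markers were chosen with earlier results of these data known. Members given in every library were 19: per role group the most and least negative for IL-13 over untreated, Mki67, Cdk1 and Aurkb, and at most 8 called per comparison for butyrate over untreated, butyrate + IL-13 over IL-13 or the interaction; Spc25, Cenpk and the other members named were chosen after their values were seen. From each list the named genes were those with the smallest adjusted p. Promoter windows came from RefSeq. Figures were drawn with matplotlib 3.10.9, and tables made with pandas 2.3.3 and numpy 2.4.6 in Python 3.11.15; the reads themselves were not used.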

Additional observations from a re-analysis of the deposited data

Results flagged for a closer look

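Mybl2, the B-Myb gene, was flagged because the test of the difference itself, the interaction of butyrate and IL-13, passed: its log2 effect of IL-13 with butyrate minus that without was -1.11 (edgeR adjusted p = 0.012). It passed under every alternative run. The same test flagged 7 genes of the other lists of mitotic, replication and transport genes, and the cell type markers were not part of this flagging. Nsl1, a subunit of the MIS12 kinetochore complex, had -1.04 (edgeR adjusted p = 0.031), with 3.59 ± 0.623 CPM with butyrate + IL-13, 8.57 ± 0.826 with IL-13, 18.5 ± 2.68 with butyrate and 21.6 ± 1.90 in untreated libraries (SD, n = 3 each). Oip5, which helps load Cenpa at the centromere and overlaps Nusap1 on the opposite strand, had -1.08 (edgeR adjusted p = 0.031). Cdca5, sororin, which holds sister chromatids together until anaphase, had -0.81 (edgeR adjusted p = 0.021). The helicase subunits Mcm2, Mcm3, Mcm5 and Mcm6 had -1.06, -1.01, -0.96 and -0.85 (edgeR adjusted p = 0.0059, 0.019, 0.04 and 0.044). Mybl2 and these 7 genes all had a negative estimate, and across all tested genes 0.611% were called lower and 0.255% higher. Among the cell type markers the test called 2 of 10 stem cell, 2 of 7 Paneth, 2 of 8 goblet and 2 of 6 enteroendocrine genes lower. Such calls were therefore not confined to mitotic and replication genes. Why these genes differ was not tested.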

How the results depend on the processing

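The 39 members called lower for butyrate + IL-13 over butyrate and over untreated, and 38 for IL-13 over untreated, were called in every fit in which they were tested. Counts for butyrate + IL-13 over IL-13 were 13 to 27 with single libraries left out (13 without butyrate + IL-13 replicate 3, 15 without IL-13 replicate 3, 18 without IL-13 replicate 2), 18 without both libraries high in Lars2, 19 with only the groups compared and 32 with library totals alone, which moves the median of all genes by -0.13 there (-0.17 for IL-13 over untreated, -0.23 for butyrate + IL-13 over butyrate and -0.29 over untreated). For butyrate over untreated 0 to 1 members were called with single libraries left out, 1 with library totals alone and 1 with only the groups compared. For the interaction 1 to 4 were called with single libraries left out and 4 by DESeq2, and the median of -0.39 became -0.22 without both libraries high in Lars2. Library totals alone gave medians of -1.43 for IL-13 over untreated, -1.83 for butyrate + IL-13 over butyrate and -2.11 over untreated, and mean levels of -1.99 with butyrate + IL-13 and -1.33 with IL-13. With single libraries left out the median for butyrate + IL-13 over untreated was -1.84 to -1.67. Signs turned for values that were not called. With library totals alone Pttg1 had -0.070 for IL-13 and -0.040 for butyrate over untreated, and Cdc25c -0.076 for butyrate + IL-13 over IL-13. Without both libraries high in Lars2 Spc25 had 0.17 there and Cdk1 0.095 in the interaction, and thinned counts gave Cenpe 0.018 for butyrate over untreated. With single libraries left out, log2 fold changes for butyrate + IL-13 over IL-13 ran from -0.18 to 0.27 for Cdc25c, -0.21 to 0.041 for Kif23 and -0.27 to 0.19 for Spc25, and the interaction of Cdk1 from -0.20 to 0.077. For butyrate over untreated they ran from -0.23 to 0.12 for Cenpe, -0.14 to 0.0076 for Kif11, -0.12 to 0.063 for Mki67, -0.13 to 0.037 for Top2a and -0.013 to 0.051 for Pttg1. The causes were not tested. Same-numbered libraries did not deviate together (r -0.15 to 0.097 over 18 pairs, and 2 of 12 libraries matched their own number best). Pairs with different numbers had r -0.21 to 0.17. These values gave no sign of pairing by number, but with 3 libraries per group they could miss a modest shared effect. A replicate block gave 39, 0, 25, 39, 39 and 1 called members in the order IL-13 over untreated, butyrate over untreated, butyrate + IL-13 over IL-13, over butyrate, over untreated, and interaction.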
